A study of Mus musculus with 12 samples.

Results

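The genes described here encode the proteins of the cytosolic ribosome. They were chosen by symbol, as Rpl or Rps followed by a number with its usual suffix, or as Rpsa, Rplp0, Rplp1 or Rplp2. Symbols marked -ps as pseudogenes and those of the ribosomal protein S6 kinases were dropped. Rps4l, annotated as a pseudogene but without that mark, stayed in. Of 24015 rows in the deposited table, 84 matched the symbols and 77 had a mean normalized count of at least 10 over the 12 samples. These 77 members, 32 of the small and 45 of the large subunit, stand among 12777 genes at that level. Of the 7 others, Rpl26, Rpl10l and Rpl3l were listed at 0 in every sample. Rpl30, Rpl34, Rpl39l and Rps27 had 61, 42, 86 and 27 reads over all 12 samples and were not tested. How reads were counted is not described, so these low values need not mean that the genes are little expressed.

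The samples were brain endothelial cells, the lining of the brain's blood vessels, sorted by flow cytometry from the cortex and hippocampus of C57BL/6 wild-type mice. Old mice were 19 months of age (6 samples) and young mice 3 months (6 samples), no other treatment or allele is given, and each sample pooled the tissue of 2 mice. Samples are called old 1, 2, 3, 4, 7 and 9 and young 1, 2, 3, 4, 5 and 9, after their titles. Nothing in the labels says that each pool used its own animals, and p-values therefore cover only the spread from sample to sample.

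Each ribosome joins a small subunit, which reads the messenger RNA, to a large subunit, which forms peptide bonds. Nearly every ribosomal protein is present in a single copy per ribosome, so cells make the proteins in balanced amounts. Their messenger RNAs begin with a C followed by a run of pyrimidines, the 5′ terminal oligopyrimidine (TOP) tract, through which the kinase complex mTORC1 and the protein LARP1 control their translation. Brain endothelial cells form the blood-brain barrier and need protein synthesis to maintain its transporters and junctions.

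In old samples 76 of the 77 members had a higher mean level on the log2 scale than in young samples, and only 3 of them passed the test. The median log2 difference, old over young, was 0.37, against −0.01 over all genes tested. The quartiles were 0.30 and 0.44, and the highest was 0.71 for Rpl22l1. Rpl3, Rps28 and Rpl12 rose and no member fell (limma across all genes, adjusted p below 0.05). Among all genes tested, 6.94% were called, 3.73% higher in old and 3.21% lower, so the count of called members was close to the background. The unadjusted p was below 0.05 for 44 members (57.1%), in either direction, against 23.8% of all genes. A log2 difference above 0 was found for 98.7% of members and 48.9% of all genes. With the sum over all other genes as scaling, 15 members were called higher, and 71.5% of all called genes were higher in old, against 53.8% as reported. The members' median was 0.17 with each sample's GC and length trend removed and 0.24 with a pericyte and smooth muscle marker score as covariate. In both fits limma called 0 members higher, and over all genes it called 487 and 215 higher, against 477 as reported. Members move together and share their samples, so these shares carry no test. In bulk RNA, fewer cells of a type and less RNA per cell cannot be told apart.

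Both subunits gave the same median. Of the small-subunit genes, 31 of 32 had a log2 difference above 0, with a median of 0.37 and 1 call. Of the large-subunit genes, 45 of 45 did, again with a median of 0.37, and 2 were called. The difference between the subunits was not tested.

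**Figure D1:**
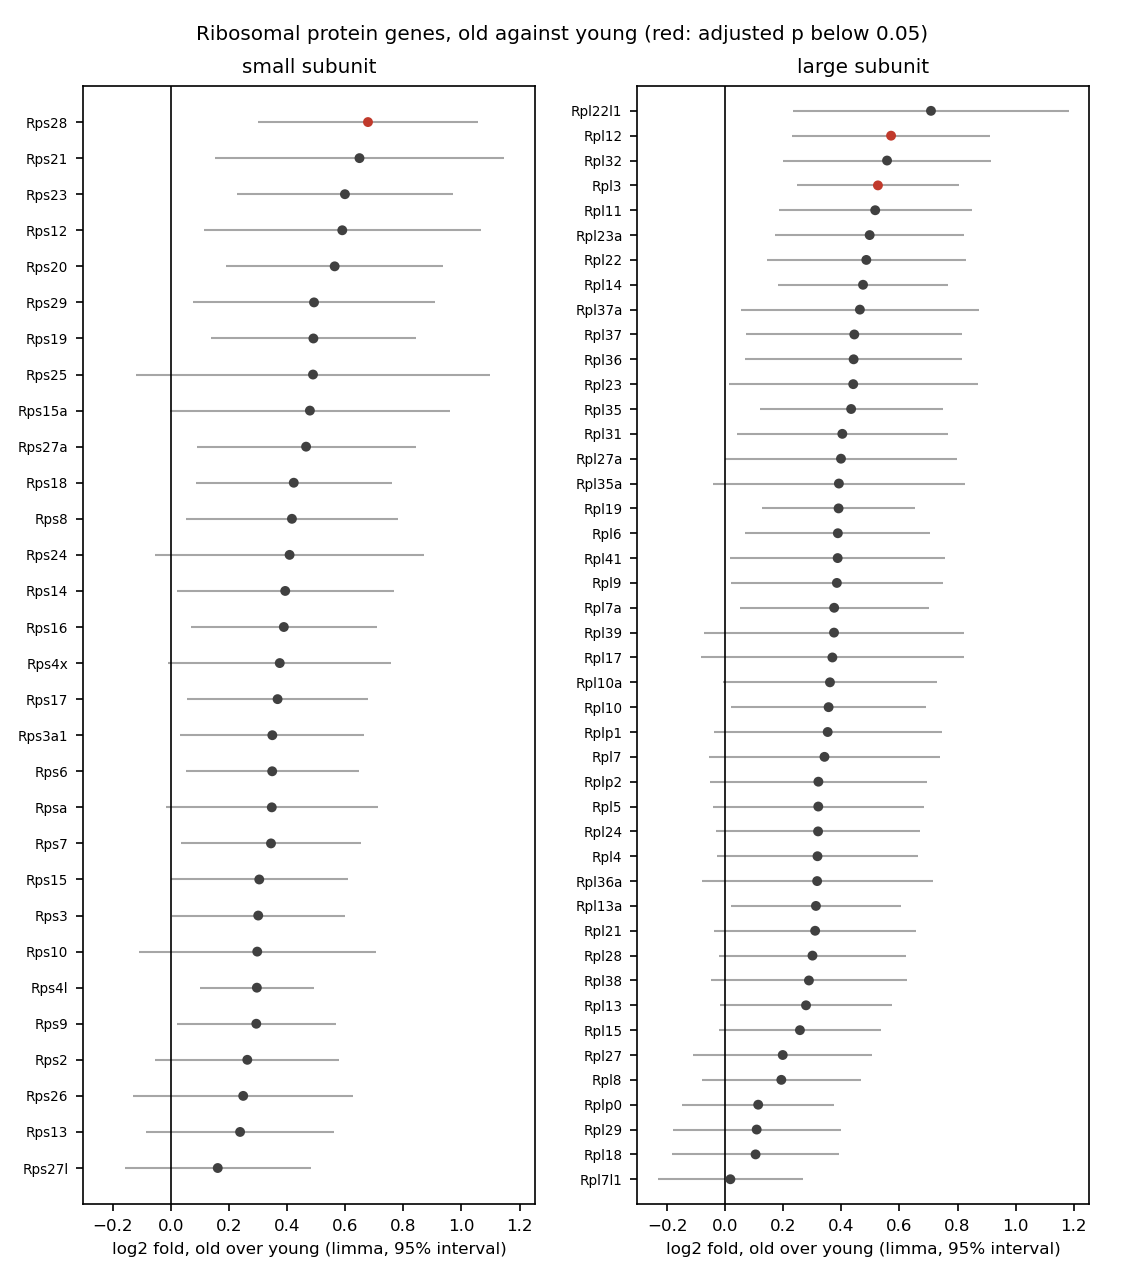
Log2 difference of old over young samples for each ribosomal protein gene, small subunit on the left and large subunit on the right. Points are limma estimates on the log2(value + 1) scale (6 samples per age), bars are 95% intervals, and red marks adjusted p below 0.05. All points shown lie to the right of 0, from 0.02 for Rpl7l1 to 0.71 for Rpl22l1. Some members are not shown.

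edgeR's quasi-likelihood test on whole reads called the same 3 members higher and 0 lower, against 3.47% and 2.58% of its genes. DESeq2 called 13 members higher and 1 lower, against 5.45% and 4.83%. Its 13 were Rpl3, Rps28, Rpl12, Rpl14, Rps23, Rpl32, Rpl11, Rpl23a, Rps4l, Rps20, Rpl22l1, Rpl19 and Rpl22. In limma 16 members had an adjusted p below 0.10, and those 13 were among them.

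Samples of the same age spread widely in these genes. The members' share of all normalized counts in old samples was 0.626% at the lowest, 0.847% at the median and 0.933% at the highest. In young samples it was 0.522%, 0.604% and 0.771%. The ages overlapped: old 1, at 0.626%, lay below 3 young samples, and young 3, at 0.771%, lay above both old 1 and old 3. The mean share was 0.822% ± 0.118 for old samples and 0.630% ± 0.095 for young ones (SD over 6 samples).

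The same samples stood out gene by gene. In old 1 only 5 of the 77 members lay above their own mean over all samples, against 56 to 75 in the other old samples. In young 3, 71 members did, against 1 to 31 in the other young samples. The old 1 library therefore sat with the young samples, and young 3 with the old. Without old 1, 19 members were called higher and 1 lower, with a median log2 difference of 0.48. Without young 3, 13 were called higher, with a median of 0.46. Over all genes, 403 and 373 were called higher in these fits, against 477 with all samples. Old 1 and young 3 were picked because their members ran against the age difference, so a larger difference without them was given in advance. Leaving out old 2, young 2, young 4 or young 5 gave 0 members called.

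**Figure D2:**
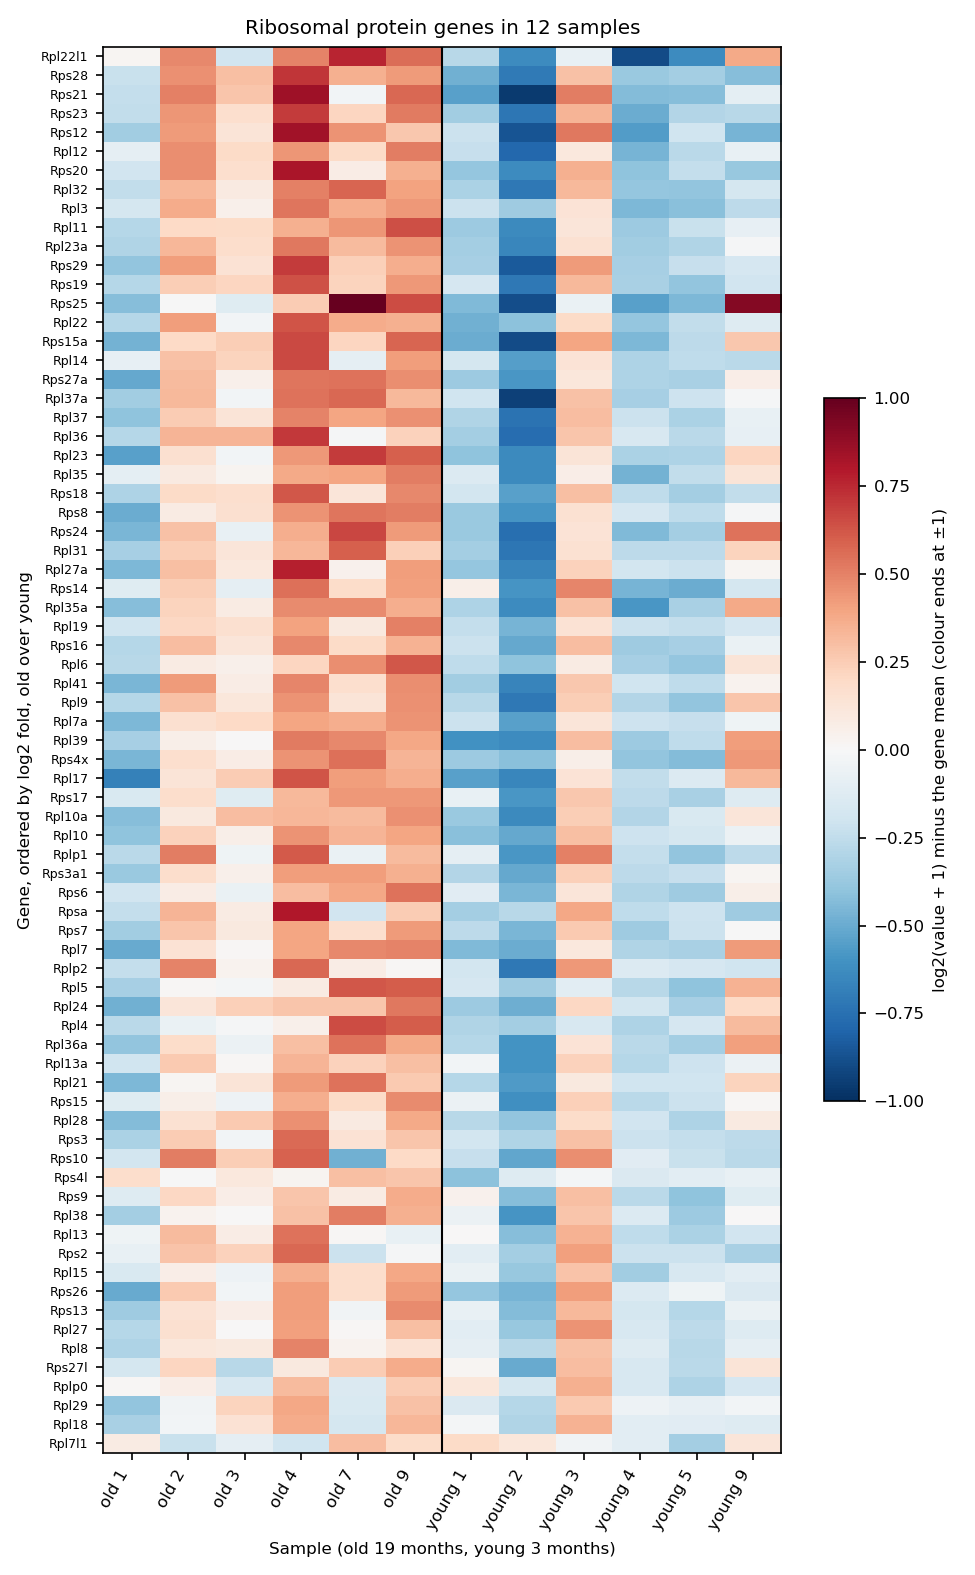
Level of each ribosomal protein gene (rows, ordered by log2 difference) in each sample (columns), as log2(value + 1) minus the gene's mean; some members are not shown. Red is above and blue below the mean. Old 4, old 9 and young 3 are red in most rows, with 75, 74 and 71 of all 77 members above their mean, and old 1, young 2, young 4 and young 5 are blue in most, with 5, 2, 1 and 1.

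Within an age the members varied together. Over the 12 samples, after the age means were taken out, the median correlation between a pair of members was 0.787, and 83.6% of 2926 pairs exceeded 0.5. These values share libraries and are given as a description. The correlation with the mean of the other members was 0.18 for Rps4l and −0.07 for Rpl7l1.

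Markers of other cell types differed in level between the same libraries. Endothelial markers dominated throughout, with summed normalized counts of 769327 to 1049670 in old and 865674 to 1035560 in young samples, and all 10 were above the minimum. Of these 8 had log2 differences below 0, with a median of −0.23, and 4 had an unadjusted p below 0.05. limma and edgeR each called 1 lower, in limma Cdh5 (−0.36, adjusted p = 0.023), and DESeq2 called 3 lower. All 8 pericyte markers had log2 differences below 0, with a median of −1.19. limma called 0 of them, with 3 at an unadjusted p below 0.05, edgeR called 0 and DESeq2 called 1 lower. Their sum was 908 to 10491 in old and 1823 to 17997 in young samples. It was lowest in old 4, old 7 and old 9, where the members' share was highest. The young samples did not show this pattern. Young 5 had the lowest young sum (1823) with a share of 0.565%, and young 3 had the highest young share (0.771%) with a sum of 5171. Of the 7 smooth muscle markers 6 were above the minimum (Cnn1 was not), 5 of these had differences below 0 and limma called 2 lower. The unadjusted p was below 0.05 for 4 of the 6, and edgeR and DESeq2 each called 1 lower. The sums were 621 to 2465 in old and 1423 to 4224 in young samples.

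All 10 astrocyte markers had differences above 0, with a median of 1.85, and limma called 1 higher. The unadjusted p was below 0.05 for 9 of them, edgeR called 0 and DESeq2 called 1 higher. Their sum was 11268 to 46659 in old and 5625 to 40267 in young samples. Of the 5 choroid and ependyma markers 2 were above the minimum. These 2 had differences above 0, with 1 at an unadjusted p below 0.05, and limma called 0. Of the 9 neuron markers, Rbfox3, Syt1, Tubb3, Slc17a7 and Meg3 were below the minimum. Stmn2 made up most of the neuron sum, at 7855 ± 2028 in old against 3154 ± 289 in young samples (± SD, 6 samples each), and was called higher (limma adjusted p = 0.00018). The other 3, Snap25, Nrgn and Gad1, had limma adjusted p values of 0.897, 0.859 and 0.856. With a score for the pericyte and smooth muscle markers as a covariate, 0 members were called by limma and the members' median was 0.24. The unadjusted p was below 0.05 for 6 members in that fit. With a score for the astrocyte markers, 0 were called and the median was 0.37, with 26 at an unadjusted p below 0.05. Calls over all genes also fell in these fits, from 477 higher and 410 lower as reported. They became 215 and 99 with the pericyte and smooth muscle score and 156 and 97 with the astrocyte score. The part of these markers in the members' difference was not tested.

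**Figure D3:**
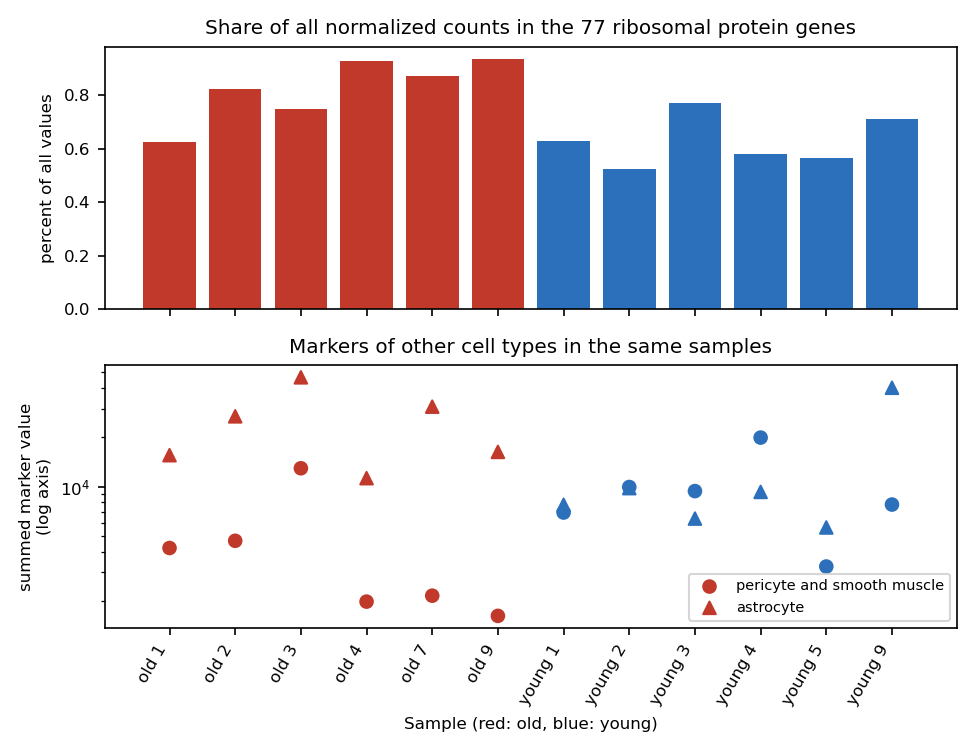
Upper panel: share of all normalized counts in the 77 members, as a percentage, by sample (bars; red old, blue young). Lower panel, on a log axis: summed normalized counts of the pericyte and smooth muscle markers (circles) and the astrocyte markers (triangles). The share runs from 0.522% in young 2 to 0.933% in old 9, and the circles are lowest in old 4, old 7 and old 9. Among the young samples the circle is lowest in young 5, which had a share of 0.565%.

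Rpl3 lies near the peptidyl transferase centre of the large subunit. Its normalized count was 5540, 8079 and 9058 at the lowest, median and highest of the old samples, and 4574, 5046 and 6865 in the young samples. Every old sample lay above the young median, but old 1 and old 3 lay below young 3. Rpl3 rose by 0.53 on the log2 scale (SE 0.131, limma adjusted p = 0.025), a fold of 1.44 with a 95% interval of 1.19 to 1.75.

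Rps28 sits on the small subunit near the exit of the messenger RNA and is mutated in some patients with Diamond-Blackfan anaemia. Its normalized count ran over 589, 901 and 1127 (lowest, median, highest) in old and 421, 520 and 843 in young samples. Old 1 lay below young 3, and the other old samples lay above all young ones. The rise was 0.68 (log2, SE 0.178, limma adjusted p = 0.031), a fold of 1.60 (95% interval 1.23 to 2.08).

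Rpl12 belongs to the base of the stalk, where elongation factors land. Its normalized count ran over 600, 798 and 911 in old and 371, 537 and 685 in young samples. Old 1 again lay inside the young range and the other old samples above it. The rise was 0.57 (log2, SE 0.160, limma adjusted p = 0.042), a fold of 1.49 (95% interval 1.17 to 1.88).

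All 3 calls were close to the threshold. Leaving out single samples gave adjusted p values of 0.0093 to 0.0658 for Rpl3, 0.0103 to 0.0717 for Rps28 and 0.030 to 0.0976 for Rpl12. None of the 3 passed without old 2, old 7, young 2, young 4 or young 5.

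**Figure D4:**
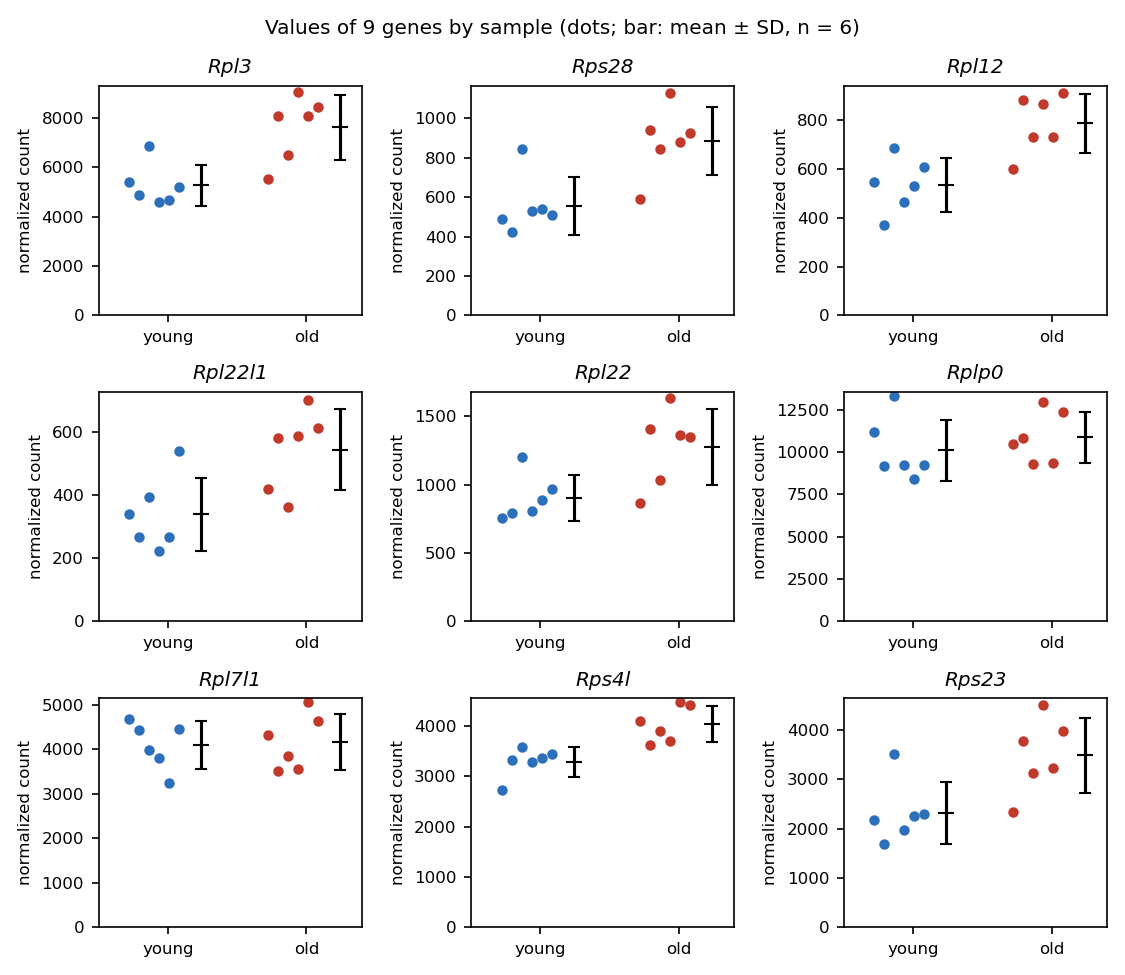
Normalized counts of 9 members in each young (blue) and old (red) sample, in title order within an age, with mean ± SD (n = 6) beside them. The axes are linear and start at 0. Rps4l is the panel in which the ages do not overlap, with old samples at 3624 to 4465 and young samples at 2725 to 3573.

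The start regions of members were searched for pyrimidine runs. The window takes in bases before the start, so a run found in it need not be the TOP tract. RefSeq (GRCm38.p6) gave start regions for 57 of the 77 members, at 67 starts. A run of at least 8 C or T letters led by C, read on the gene's strand within 50 bases either side of the start, was present at 52 of the 67 starts (77.6%), against 28.8% of 32851 starts of all genes. The following stretches run from 70 bases before to 25 bases after the start, with such runs in capitals. They contrast genes with a run over the start (Rpl14, Rpl27a), a run just after it (Rpl22l1) and no run in the stretch (Rpl12, Rps28). The window of the count reaches 50 bases after the start, so the stretches do not cover all of it.
Rpl14, chr9:120571447-120571541, plus strand: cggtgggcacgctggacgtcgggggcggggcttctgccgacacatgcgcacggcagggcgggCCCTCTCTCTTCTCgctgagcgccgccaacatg
Rpl27a, chr7:109519125-109519219, plus strand: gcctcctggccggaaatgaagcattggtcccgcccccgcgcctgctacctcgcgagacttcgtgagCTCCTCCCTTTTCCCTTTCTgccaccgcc
Rpl22l1, chr3:28805438-28805532, plus strand: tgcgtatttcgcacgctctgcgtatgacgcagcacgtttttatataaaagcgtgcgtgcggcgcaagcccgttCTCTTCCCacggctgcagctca
Rpl12, chr2:32961642-32961736, plus strand: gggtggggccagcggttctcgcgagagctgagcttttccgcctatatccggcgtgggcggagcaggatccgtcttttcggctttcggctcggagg
Rps28, chr17:33824538-33824632, minus strand: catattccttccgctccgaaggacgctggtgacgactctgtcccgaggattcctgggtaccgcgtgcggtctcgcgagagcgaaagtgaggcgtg

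In Rpl14 the run was 14 bases, from 8 before the start to base 6, and in Rpl27a it was 20 bases, from 4 before the start to base 16. In Rpl22l1 it was 8 bases, from base 4 to base 11. Among the genes looked at, those with a run and those without it both held members with log2 differences near the group's median or above it. Rpl14 (0.47) and Rpl27a (0.40) had one. Rpl12 (0.57), Rps28 (0.68), Rps23 (0.60) and Rpl7l1 (0.02) had none from 70 bases before to 25 bases after the start. Rpl12, Rps28 and Rps23 were looked at for their small p, so their differences do not describe members without a run. Members with and without a run were not compared as groups. A missing run says only that these letters are not in that stretch around the annotated start. A run that is present need not begin at the start, and the printed runs did not.

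The same start regions were searched over 300 bases on both strands for CCGGAAG, the core letters of ETS-family sites, and for AAGATGGC, those of YY1 sites. The first was present in 24 of the 67 regions (35.8%), against 8.86% of all regions. The second was present in 7 (10.4%), against 2.75%. Such matches describe letters and are not evidence of binding.

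Among the large-subunit genes, Rpl5 and Rpl11 form with 5S ribosomal RNA the particle that can bind Mdm2 and stabilise p53. The normalized count of Rpl11 ran over 1202, 1786 and 2292 in old and 944, 1197 and 1599 in young samples (lowest, median, highest). All old samples lay above the young median, and old 1 lay below young 3, young 5 and young 9. The log2 difference was 0.52 (limma adjusted p = 0.059). Rpl5 had 1962 ± 521 in old and 1551 ± 325 in young samples (± SD, 6 samples each), a log2 difference of 0.32 (limma adjusted p = 0.267).

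The proteins around the exit of the nascent chain gave 8 tested genes of 9 listed, since Rpl26 was listed at 0. All 8 had log2 differences above 0, with a median of 0.40. By limma 0 were called. The unadjusted p was below 0.05 for 5 (62.5%), near the share of all 77 members (57.1%), against 23.8% of all genes. edgeR called 0 and DESeq2 called 3 higher, against 13 of the 77 members. Rpl23a, where the signal recognition particle docks, had the smallest p. Its normalized count was 1711, 2640 and 3032 in old and 1340, 1689 and 2343 in young samples, a log2 difference of 0.50 (limma adjusted p = 0.063).

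The stalk, which recruits elongation factors, is built on Rplp0 with Rplp1 and Rplp2 attached. Rplp0 was among the members that differed least between the ages. Its normalized count was 9296, 10648 and 12928 in old and 8392, 9252 and 13287 in young samples, so that young 3 was the highest sample of all. The log2 difference was 0.11 with a 95% interval of −0.15 to 0.38 (limma adjusted p = 0.610). Rplp1 had a difference of 0.35 (limma adjusted p = 0.259) and Rplp2 of 0.32 (limma adjusted p = 0.281). For the 3 stalk genes limma called 0, with 0 at an unadjusted p below 0.05, and edgeR and DESeq2 called 0.

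Of the other large-subunit genes, Rpl14 and Rpl32 missed the threshold narrowly. Rpl14 had normalized counts of 3867, 4921 and 6475 in old and 2799, 3430 and 4507 in young samples, a log2 difference of 0.47 (limma adjusted p = 0.051). Rpl32 had 1981, 3038 and 3518 in old and 1430, 1839 and 2935 in young samples, a difference of 0.56 (limma adjusted p = 0.059). In both genes all old samples lay above the young median, and young 3 lay within the old range, as did young 9 in Rpl32.

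Among the small-subunit genes, Rps23 lies at the decoding centre. Its normalized count was 2338, 3499 and 4502 in old and 1685, 2221 and 3509 in young samples, a log2 difference of 0.60 (limma adjusted p = 0.052). Young 3 lay above old 1, old 3 and old 7. Rps6, the protein phosphorylated by the S6 kinases downstream of mTORC1, had 3627 ± 705 in old and 2835 ± 464 in young samples (± SD, 6 samples each), a difference of 0.35 (limma adjusted p = 0.142).

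Rpsa, a small-subunit protein also described as a laminin receptor, had 4083 ± 1154 in old and 3167 ± 709 in young samples (± SD, 6 samples each). The log2 difference was 0.35 (limma adjusted p = 0.233). Old 4, at 6116, and young 3, at 4597, were the highest samples of their ages.

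Levels differed widely among members. Per 1000 coding bases the mean normalized count was highest for Rpl41, the smallest ribosomal protein, at 43149. The lowest were Rpl22l1 at 1207, Rpl12 at 1333 and Rpl10a at 1520. These figures are levels divided by coding length and are not differences between the ages. For Rpl41 the coding part is 75 bases of a 544-base transcript. Its mean normalized count was 3236, against 10650 for Rpl4, so its first place rests on its short coding length.

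Genes mutated in Diamond-Blackfan anaemia, a failure of red cell production described in human patients, gave 17 tested genes of 19 listed. All 17 had log2 differences above 0, as did 98.7% of all members, with a median of 0.39. The unadjusted p was below 0.05 for 8 (47.1%), against 57.1% of all members and 23.8% of all genes. Rps28 was called, and DESeq2 called 2, Rps28 and Rpl11. Rps19, the gene first linked to the disease, had 4746 ± 953 in old and 3398 ± 844 in young samples (± SD, 6 samples each), a difference of 0.49 (limma adjusted p = 0.086).

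Paralogs were compared with their parent genes within each sample, which frees the ratio from that sample's scaling. Rpl22l1 is the paralog of Rpl22, and in mouse it is known to increase when Rpl22 is lost. Rpl22l1 had the largest log2 difference of all members, with normalized counts of 363, 584 and 703 in old and 223, 305 and 540 in young samples. The difference was 0.71 (limma adjusted p = 0.067), and old 1 and old 3 lay within the young range, which reached 540 in young 9. Rpl22 had 864, 1356 and 1633 in old and 755, 848 and 1203 in young samples, a difference of 0.49 (limma adjusted p = 0.081).

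The log2 ratio of Rpl22l1 to Rpl22 was −1.23 ± 0.23 for old samples and −1.45 ± 0.39 for young ones (SD over 6 samples). It was higher by 0.22 in old samples (exact two-sided permutation p = 0.247, adjusted p = 0.494 over 4 pairs). Young 1, at −1.14, lay among the old samples, and young 9, at −0.84, lay above them all.

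Rpl7l1, known in human cells as a protein of assembling large subunits, had the difference closest to 0. Its normalized count was 3511, 4084 and 5059 in old and 3234, 4209 and 4676 in young samples, with 3 of 6 old samples above the young median. The log2 difference was 0.02 with a 95% interval of −0.23 to 0.27 (limma adjusted p = 0.945). Rpl7 had 8049 ± 1906 in old and 6353 ± 1729 in young samples (± SD, 6 samples each), a difference of 0.34 (limma adjusted p = 0.277). The log2 ratio of Rpl7l1 to Rpl7 was lower by 0.324 in old samples (mean −0.93 against −0.60, exact permutation p = 0.177, adjusted p = 0.494).

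Rps4l, compared here with Rps4x, is annotated by GENCODE M21 as a transcribed processed pseudogene. It was the single member whose ages did not overlap, with normalized counts of 3624, 3995 and 4465 in old and 2725, 3345 and 3573 in young samples. Among all genes tested, 2.18% were without overlap and higher in old, and 2.11% without overlap and lower. The log2 difference was 0.30 (SE 0.092, limma adjusted p = 0.065). Rps4x had a difference of 0.37 (limma adjusted p = 0.221), and the ratio of Rps4l to Rps4x differed by −0.08 (exact permutation p = 0.690, adjusted p = 0.690).

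Rpl36al, which the symbol rule does not take in, had 1347 ± 278 in old and 1148 ± 196 in young samples (± SD, 6 samples each). Its log2 ratio to Rpl36a differed by −0.09 (exact permutation p = 0.554, adjusted p = 0.690). None of the 4 ratios thus passed the test. The pairs of Rps27l, Rpl39l, Rpl3l and Rpl10l were not tested, because a gene of each was below the minimum.

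Ribosomal protein genes have many processed copies in the mouse genome, and reads can be split among them. For 28 members every stretch of 50 coding bases was also present in another GENCODE M21 gene, and for 36 at least 50% and not all were. Rps28, Rpl12 and Rps23 are among the first group, and Rpl3 shares 95.7% of its stretches. Their levels are therefore uncertain in a way that depends on how multiply mapped reads were counted, which no source used here describes.

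The median log2 difference was 0.38 for the 28 fully shared members, 0.39 for the 36 and 0.30 for the 12 with less than 50% shared. In the last group 11 of 12 differences were above 0 and limma called 0. Rps3, at 8.09% shared, had 0.30 (limma adjusted p = 0.206), and Rpl8, at 8.73%, had 0.19 (limma adjusted p = 0.379). Adding the 7 pseudogene rows of the table to their genes left the count at 3. These pseudogene rows held at most a mean of 46.4 (Rpl14-ps1).

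Across 76 members with a coding sequence, the log2 difference had a Pearson correlation of −0.55 with the mean normalized count (Spearman −0.32). It was −0.24 with coding length (Spearman −0.35) and −0.27 with the GC content of the transcript (Spearman −0.27). These are descriptions across genes, which share libraries and are not independent. Removing each sample's trend with GC content and length lowered the members' median to 0.17, against −0.06 over all genes. In that fit 69 of 77 members remained above 0, and 11 had an unadjusted p below 0.05 in either direction. limma called 0 members higher and 1 lower, and over all genes 487 higher and 561 lower. Old 7, old 9 and young 9 had the most negative slopes, at −0.08, −0.16 and −0.17 log2 units per 10 percentage points of GC. The slopes of the other samples ran from −0.03 to 0.13. Without old 7, old 9 and young 9 limma called 0 members, with 25 at an unadjusted p below 0.05, and the members' median was 0.35. Over all genes that fit called 496 higher and 408 lower, against 477 and 410 with all samples. The part of GC content in the difference was not tested.

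Introns of ribosomal protein genes often carry small nucleolar RNA genes, which guide the modification of ribosomal RNA. Such a gene lies inside 29 members, with a median log2 difference of 0.37, the same as in the 48 others. Of the 77, 21 share exon bases with another annotated gene, the called Rps28 (with Kank3) and Rpl12 (with Lrsam1) included. The median was 0.39 in these and 0.37 in the 56 without overlap.

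Other genes of the translation system were described from lists in the same way. Of all genes tested, 23.8% had an unadjusted p below 0.05 and 48.9% a log2 difference above 0. The other TOP messenger RNAs, which encode elongation factors and related proteins, gave 18 tested genes. Of these 16 had log2 differences above 0, with a median of 0.19. limma called 0, with 3 at an unadjusted p below 0.05, and edgeR and DESeq2 each called Eef1a1 higher. Eef1a1, which brings aminoacyl-tRNA to the ribosome, had normalized counts of 31782, 45510 and 50370 in old and 28019, 31427 and 39159 in young samples. The difference was 0.42 (limma adjusted p = 0.055), and old 1 lay inside the young range.

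Fau and Rps27a encode a ubiquitin-like protein and ubiquitin fused to a ribosomal protein. Fau had 2316 ± 497 in old and 1733 ± 382 in young samples (± SD, 6 samples each), a log2 difference of 0.42 (limma adjusted p = 0.141). Rps27a had a log2 difference of 0.47 (limma adjusted p = 0.123).

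The genes that make or regulate ribosomes had medians near that of all genes. For 40 ribosome assembly factors the median was 0.02, with 24 above 0. limma, edgeR and DESeq2 called 0, with 4 at an unadjusted p below 0.05, and Heatr1, a factor of ribosomal RNA processing, had the smallest p (−0.69, limma adjusted p = 0.150). For 15 genes of RNA polymerase I, which transcribes ribosomal RNA, the median was −0.01. limma and edgeR called 0, 3 had an unadjusted p below 0.05, and DESeq2 called Cd3eap higher. The smallest p was for Rrn3, which brings the polymerase to its promoters (−0.46, limma adjusted p = 0.091).

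For 30 genes of mTORC1 and of TOP control the median was −0.03, with 12 above 0. limma, edgeR and DESeq2 called 0, and 2 had an unadjusted p below 0.05. Larp1, the TOP-binding protein, had 2649 ± 481 in old and 3002 ± 243 in young samples (± SD, 6 samples each), a log2 difference of −0.20 (limma adjusted p = 0.331). Mtor had −0.25 (limma adjusted p = 0.506). The smallest p was for Rragc, a GTPase that recruits mTORC1 to lysosomes (−0.27, limma adjusted p = 0.116).

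For 37 initiation factors the median was 0.04, with 22 above 0. limma and edgeR called 0, 7 had an unadjusted p below 0.05, and DESeq2 called Eif4g2 lower. For 14 genes of ribosome rescue and hibernation the median was −0.19, and 2 were above 0. limma and edgeR called 0, 1 had an unadjusted p below 0.05, and DESeq2 called Abce1 lower. Abce1, which splits ribosomes after termination, had normalized counts of 2598, 2773 and 3024 in old and 2921, 3479 and 3773 in young samples (log2 difference −0.27, limma adjusted p = 0.086). Old 7 alone lay within the young range.

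The proteins of the mitochondrial ribosome, encoded by separate nuclear genes, number 77 here as well. Their median log2 difference was 0.14, with 64 of 77 above 0, against 0.37 and 76 of 77 for the cytosolic genes. The difference between the 2 groups was not tested. limma and edgeR called 0, with 6 at an unadjusted p below 0.05 (7.79%, against 23.8% of all genes). DESeq2 called Mrpl23 higher.

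**Figure D5:**
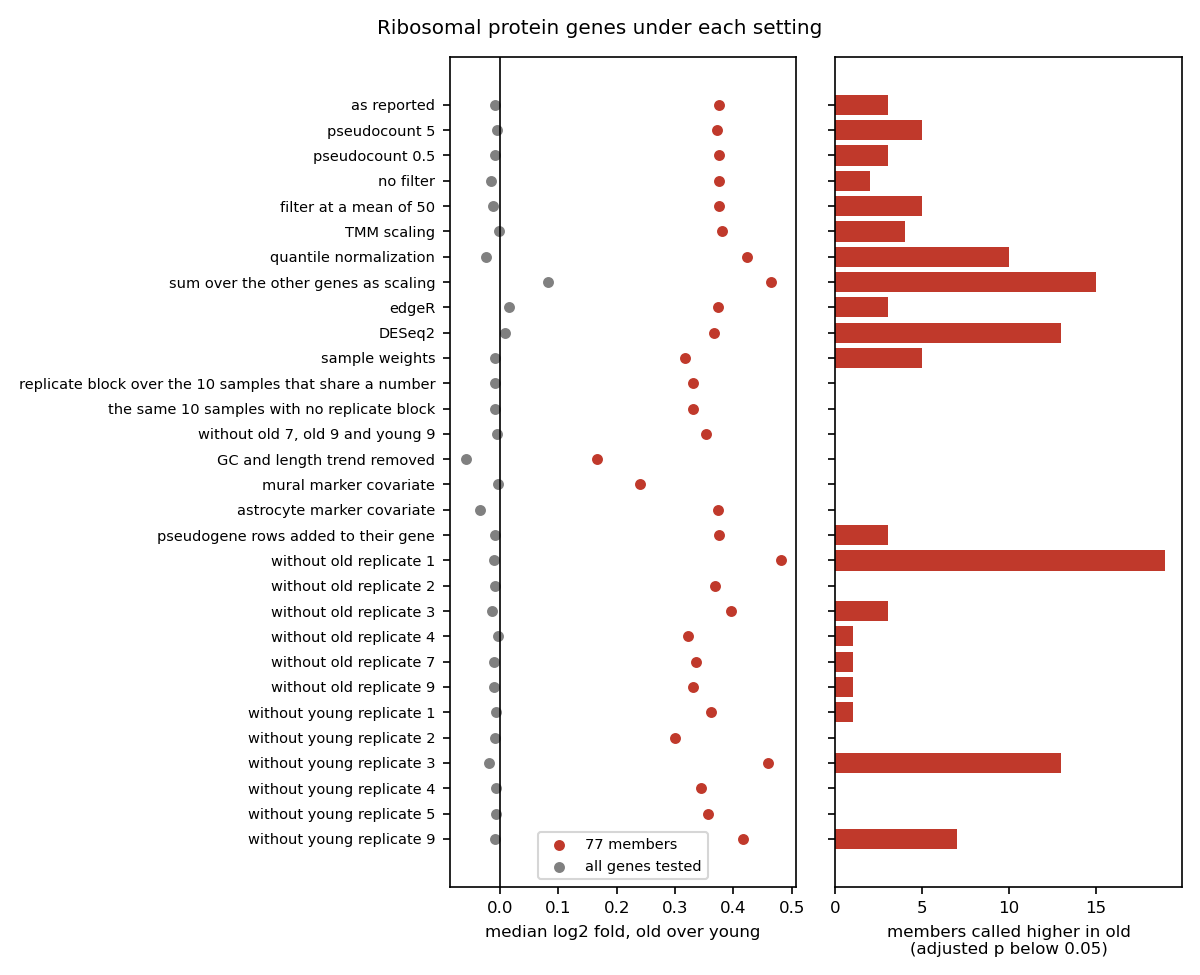
Left: median log2 difference of the 77 members (red) and of all genes tested (grey) under the reported analysis and 29 other settings. Right: number of members called higher in old. The members' median stays between 0.17 and 0.48, while the count runs from 0 to 19.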

How the data were processed

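RNA-seq values of 12 samples were used. The authors deposited 1 table of 24015 gene symbols, a signal per gene called normalized counts, in which each column is whole reads divided by a factor. After division by the column's smallest step, 100% of values were whole within 0.001. The samples held 25809499 to 40393814 such reads each, which carry no molecular identifiers. Every pair of samples within an age differed by more than counting noise (chi-square per degree of freedom at least 34.0). Per the submitters' processing notes, tools were STAR 2.4.2a, FastQC 0.11.2, R 3.2.2 and Cuffdiff 2.2.1, with build mm9. How reads were counted, and against which annotation, is not given in the sources used here. No coordinates of that build were used.

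Tests used log2(value + 1). All 12777 genes whose mean was 10 or more were fitted with limma 3.58.1 in R 4.3.3, with age as the only term and a mean-variance trend, and p-values were Benjamini-Hochberg adjusted over all of them. A gene is called at an adjusted p below 0.05. Differences are of mean logs. Recovered reads were also tested with edgeR 4.0.16 (12580 genes) and DESeq2 1.42.0 (13689 genes). Paralog ratios were compared by exact permutation over 924 labelings. The procedure was tested on simulated data in which genes varied independently of one another. The members vary together, so that test does not bear on them as a group. Coding lengths, GC content, overlaps and shared stretches came from GENCODE M21 (12688 genes matched, 99.3%), start regions from RefSeq (GRCm38.p6).

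Named are the called members, the 6 with the next smallest p, those below 0, paralog pairs, Rpsa, the stalk, Rpl5, Rpl11, Rps6, the 3 highest and 3 lowest members per coding length, and from each other list the gene with the smallest p. Other genes were named after their values were seen. Members and lists were chosen with earlier results of these data known. Other settings covered the pseudocount, filter, scaling, test, sample weights, title number, GC and length trend, marker covariates, pseudogene rows and each sample left out. Values of some named members and listed genes are not reported here, although counts and medians include them.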

Additional observations from a re-analysis of the deposited data

Results flagged for a closer look

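Within an age, 1 sample lay far from the other 5 in 9 of 76 groups of values examined. For independent groups chance marks about 1 in 20. These groups share samples and hold genes that vary together, so their count cannot be set against that rate. In 5 of them the sample was young 3, which lay above the other young samples. Its normalized count of Rpl3 was 6865, against 4574 to 5395 in the others. For Rps28 it was 843, against 421 to 541, and for Rps23 it was 3509, against 1685 to 2286. For Rpsa it was 4597, against 2740 to 3042, and for Rplp1 it was 3094, against 1462 to 2053.

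Young 9 had an Rpl5 count of 2175, against 1293 to 1586 in the other young samples. Young 1 had the lowest Rps4l count, 2725, against 3274 to 3573. Young 5 had a Heatr1 count of 1558, against 652 to 941. Old 7 had an Mrpl23 count of 794, against 379 to 522 in the other old samples.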

How the results depend on the processing

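The members' median log2 difference kept its direction under all 29 other settings (0.17 to 0.48, as reported 0.37), whereas the count called moved. As reported, 3 members were called higher and 0 lower. The number higher was 5 with a pseudocount of 5, with a filter at a mean of 50 and with sample weights, 10 with quantile normalization and 15 with the sum over the other genes as scaling. It was 13 with DESeq2, which called 1 lower. It was 0 without old 7, old 9 and young 9, and 0 with the GC and length trend removed, which called 1 lower. Over all genes those fits called 496 and 487 higher and 408 and 561 lower. The number of members called higher was also 0 with the mural marker covariate and with the astrocyte marker covariate. Leaving out 1 sample gave 0 to 19 higher and 0 to 1 lower: 0 without old 2, young 2, young 4 or young 5, 1 without old 4, old 7, old 9 or young 1, 7 without young 9, 13 without young 3 and 19 without old 1. Over all genes, 477 higher and 410 lower became 720 higher with the sum scaling, 746 and 661 with DESeq2, 765 higher with sample weights, 215 and 99 with the mural covariate, 156 and 97 with the astrocyte covariate, and 310 to 698 and 244 to 529 with 1 sample left out. The sign of Rpl7l1 turned with sample weights (−0.014), without old 7, old 9 and young 9 (−0.073), with the trend removed (−0.019), with the astrocyte covariate (−0.074) and among single samples left out (−0.048 to 0.064). That of Rplp0 turned with the trend removed (−0.025). The causes were not tested. The other named members kept their direction under every setting.

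Over all genes, the deviations of same-numbered samples correlated at −0.160 to 0.098 for 5 numbers, none closest to its own number. Over the members alone they correlated at −0.235 to 0.626, above 0.1 for 4 of the 5. The labels do not say that a number marks a shared batch, and the reported fit did not treat the numbers as pairing the samples. Whether they do was not tested. With the replicate number as a block over those 10 samples, 0 members were called, and 299 genes higher and 311 lower, and the members' median was 0.33. The same 10 samples with no block, a setting chosen after seeing the data, gave 0 members, 261 genes higher and 211 lower. Rpl7l1 had −0.11 in both, and the Rps4l to Rps4x ratio turned to 0.021 with the block. In those fits the unadjusted p was below 0.05 for 32 and 24 members.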
